A study of Homo sapiens with 6 samples.

Results

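This section describes 10 transcripts of the MYC network and the MYC locus, of 23024 genes listed in all, in 5637 cells with and without knockdown of RAD51C. They are MYC, its dimer partner MAX, the antagonists MXD1, MXD3, MXD4, MXI1 and MNT, and the noncoding transcripts PVT1, CASC19 and CASC8 from the MYC neighbourhood at 8q24. The members were taken by name, and they were chosen by their FPKM values in the comparison of NC with sh-RAD51C given below, whose results were already known. Their values in it are therefore given as a description, with no p-value, and no test rests on them. 5637 is an established human bladder carcinoma line. The study sequenced total RNA from 3 libraries named NC, whose genotype is labelled WT, and 3 libraries named sh-RAD51C, a short hairpin RNA knockdown of the repair gene RAD51C. All 6 came from transfected cells. NC is not spelled out in the labels, the hairpin is not identified, and separate cultures are not mentioned, so p-values speak only to how far these libraries scatter, which can be technical scatter.

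MYC is a transcription factor of the basic helix-loop-helix leucine zipper class. It binds DNA only as a dimer with MAX, preferentially at the E-box CACGTG, and raises transcription of genes for ribosome assembly, nucleotide and polyamine synthesis and cell growth. The MXD proteins, MXI1 and MNT compete for MAX, occupy the same E-boxes and recruit SIN3 and histone deacetylases, which repress transcription. MAX can also pair with itself. PVT1 is a long noncoding RNA gene just downstream of MYC that is often amplified with it, and CASC19 and CASC8 lie upstream, in a region dense with cancer risk variants and enhancers.

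The E-box is the sequence through which all of these dimers act, so the promoters that hold it are shown first for the antagonists and for MYC target genes described further on. RefSeq promoters on GRCh38.p14, each running from 250 bases before to 50 bases after a gene's start, were searched for CACGTG, which reads the same on both strands. Promoters were found for 6 of the 10 members, and those of MXD4 and MNT held the motif. SRM and IMP4 are shown as MYC target genes. The stretches below lie wholly upstream of the start, are written 5′ to 3′ on the strand of the gene, and carry the E-box in capitals.
MXD4 (chr4:2262322-2262359, minus strand): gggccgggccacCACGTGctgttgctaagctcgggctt
MNT (chr17:2401228-2401273, minus strand): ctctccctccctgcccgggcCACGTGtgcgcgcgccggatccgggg
SRM (chr1:11060192-11060237, minus strand): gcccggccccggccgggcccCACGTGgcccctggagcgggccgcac
IMP4 (chr2:130342674-130342719, plus strand): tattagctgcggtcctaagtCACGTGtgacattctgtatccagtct

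Across all genes tested that had a RefSeq promoter, 12.7% held CACGTG (1145 of 9031). Of the MYC target genes tested, 30 of 55 with a promoter held it, or 54.5%. In the 250 bases before the start alone the share was 18 of 55, or 32.7%, against 11.2% of all genes tested. Over the whole window, among those of the list that rose in sh-RAD51C the motif was present in 25 of 47, and among the others in 5 of 8. The corepressor genes described below held it in 1 of 14. A match describes these letters only and is not a binding site.

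Expression was deposited as FPKM, reads scaled to gene length and library size. Levels set side by side between genes, and their sums and ratios, depend on the length counted. The counted lengths inferred from the values were 4518 bases for MYC, 1940 for PVT1, 3871 for MXD4 and 9179 for MNT. Exon bases in GENCODE release 29 were 3001, 5493, 7058 and 8728. Depth was alike, 36068282 to 38079825 reads per library as inferred from the values. Of all genes, 11152 averaged at least 1 FPKM and were tested with limma on log2(FPKM + 1). A gene was called at a Benjamini-Hochberg adjusted p under 0.05. RAD51C itself was at 13.8 ± 0.804 FPKM in NC and 3.18 ± 0.288 FPKM in sh-RAD51C (SD, n = 3), 23.0% of the NC mean (limma adjusted p = 7.16e-09; exact two-sided permutation p = 0.1, the smallest that 3 against 3 allows). Of 11 urothelial and epithelial markers 9 were tested, and all 9 were called, 5 higher and 4 lower in sh-RAD51C. EPCAM averaged 76.5 FPKM in NC and 109 FPKM in sh-RAD51C, and KRT7, KRT8, KRT18 and GATA3 were also higher. The basal markers were lower: KRT5 averaged 686 and 301 FPKM, KRT17 371 and 132 FPKM and TP63 28.8 and 17.8 FPKM, and CDH1 averaged 35.5 and 32.7 FPKM. The part of this marker shift in the results below was not tested. The differentiated urothelial marker UPK2 averaged 0.183 and 0.189 FPKM and UPK3A was near 0. The summed level of the 11 was 2202 to 2265 FPKM in NC and 2138 to 2215 FPKM in sh-RAD51C. Markers of other cells were low. Their summed level was 14.6 to 14.9 FPKM in NC and 12.1 to 12.9 FPKM in sh-RAD51C for 8 fibroblast genes, carried by COL1A1 and THY1 with COL1A2 and DCN near 0. It was 0.182 to 0.489 FPKM over all libraries for 6 endothelial genes. For 5 blood cell genes it was 2.37 to 3.67 FPKM, carried by CD14 and CD68 with PTPRC near 0. CD14 averaged 1.57 FPKM in NC and 0.573 FPKM in sh-RAD51C, and CD68 averaged 1.72 and 2.24 FPKM.

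All 10 members passed the filter on low values, CASC19 and CASC8 only through their level in sh-RAD51C, since their NC means lay under 1 FPKM. Of the 10, 5 were called higher in sh-RAD51C (MYC, MAX, PVT1, CASC19 and CASC8), 3 lower (MXD3, MXI1 and MXD4) and 2 were not called (MXD1 and MNT). Over all genes tested 49.4% were called, 23.2% higher and 26.2% lower. The groups did not overlap in 8 members, 5 higher and 3 lower, and in 58.4% of all genes tested, 27.6% higher and 30.8% lower. Because the members were chosen with this comparison known, nothing is read from these counts. In bulk RNA, fewer cells of a kind and less RNA per cell cannot be told apart.

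**Figure D1:**
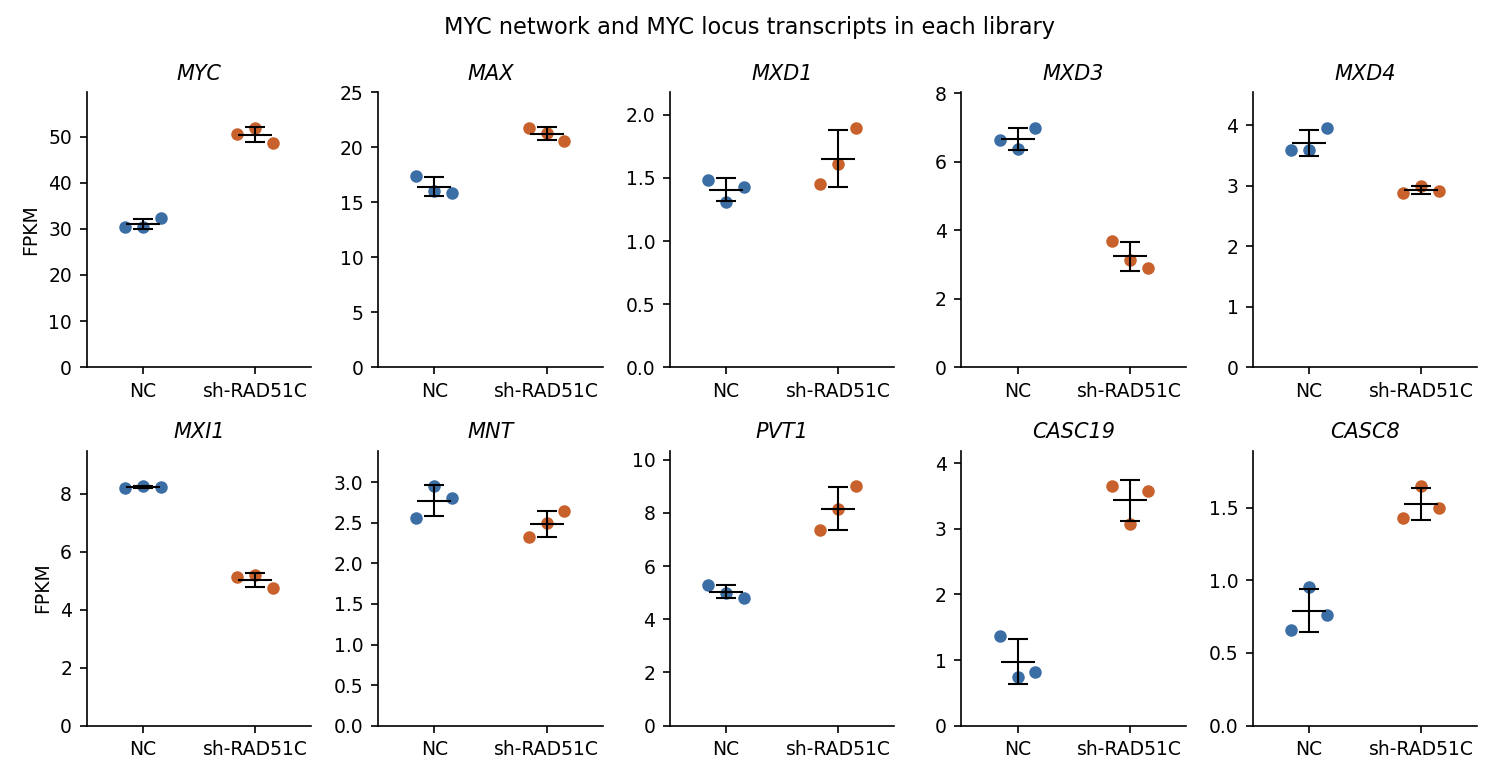
FPKM of each of the 10 transcripts in the 3 NC and 3 sh-RAD51C libraries (points), with the group mean and SD (black bars); each panel has its own axis from 0. MYC, MAX, PVT1, CASC19 and CASC8 sit higher in every sh-RAD51C library, MXD3, MXD4 and MXI1 lower, and MXD1 and MNT overlap between the groups.

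MYC had the highest level of the 10 in both groups. It measured 30.5, 30.3 and 32.3 FPKM in NC 1, 2 and 3 and 50.6, 51.9 and 48.7 FPKM in sh-RAD51C 1, 2 and 3. Every sh-RAD51C library lay above every NC library, and the gap between the groups was many times the spread within either. The means were 31.0 ± 1.11 and 50.4 ± 1.61 FPKM (SD, n = 3), a ratio of 1.62, and the log2 difference was 0.68 ± 0.040 (SE). Between 4969 and 8703 inferred reads stood behind each value. MYC (NCBI gene 4609) lies on chromosome 8 of GRCh38 from 127735434 to 127742951, and its exons share no base with another gene in GENCODE release 29.

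MAX, the partner that MYC and its antagonists share, was also higher in the knockdown. Its level was 17.4, 15.98 and 15.8 FPKM in NC 1, 2 and 3 and 21.8, 21.3 and 20.6 FPKM in sh-RAD51C 1, 2 and 3. The groups did not overlap, though the step was smaller than for MYC, with means of 16.4 ± 0.856 and 21.2 ± 0.577 FPKM (SD, n = 3) and a ratio of 1.29. The log2 difference was 0.35 ± 0.046 (SE). MAX lies on chromosome 14 from 65006101 to 65102695.

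MXI1 was the most abundant antagonist in both groups and was lower in sh-RAD51C. It stood at 8.21, 8.26 and 8.22 FPKM in NC 1, 2 and 3, the tightest group of any member, and at 5.15, 5.204 and 4.74 FPKM in sh-RAD51C 1, 2 and 3. The means of 8.23 ± 0.0265 and 5.03 ± 0.254 FPKM (SD, n = 3) differ 1.64-fold, a log2 difference of -0.62 ± 0.053 (SE). The gene lies on chromosome 10 from 110207605 to 110287365.

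MXD3, an MXD protein linked to proliferating cells, showed the widest gap of the antagonists. Its values were 6.63, 6.36 and 6.99 FPKM in NC 1, 2 and 3 and 3.69, 3.12 and 2.88 FPKM in sh-RAD51C 1, 2 and 3. No library of one group reached the other, and the means were 6.66 ± 0.315 and 3.23 ± 0.418 FPKM (SD, n = 3), 2.06-fold lower in the knockdown, with a log2 difference of -0.86 ± 0.074 (SE). MXD3 lies on chromosome 5 from 177305499 to 177312752. In GENCODE 40.4% of its exon bases are shared with PRELID1 or RAB24, and the strand setting of the counting is not given, so its level is uncertain. The counted length inferred for MXD3 was 2786 bases, against 5154 exon bases in GENCODE. The 40.4% therefore need not hold for the bases counted. At the RefSeq positions PRELID1 (177303799 to 177306949) overlaps MXD3, while RAB24 ends at 177303719 and does not. PRELID1 was at 98.8 ± 4.12 FPKM in NC and 132 ± 8.56 FPKM in sh-RAD51C (SD, n = 3; limma, Benjamini-Hochberg adjusted p = 4.86e-05). RAB24 was at 5.60 ± 0.565 and 6.13 ± 0.534 FPKM (limma adjusted p = 0.247). Their part in the MXD3 values was not tested.

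MXD4, which is associated with resting and differentiating cells, differed less. NC 1, 2 and 3 held 3.58, 3.59 and 3.95 FPKM, and sh-RAD51C 1, 2 and 3 held 2.88, 3.00 and 2.92 FPKM. The groups did not overlap. Means were 3.71 ± 0.213 and 2.93 ± 0.0635 FPKM (SD, n = 3), 1.27-fold lower in the knockdown, a log2 difference of -0.26 ± 0.060 (SE). The gene lies on chromosome 4 from 2247432 to 2262109, and its promoter is one of the pair of member promoters with an E-box.

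MNT, the broadly expressed antagonist, and MXD1, which is induced when many cell types differentiate, overlapped between the groups. MNT measured 2.56, 2.95 and 2.80 FPKM in NC 1, 2 and 3 and 2.32, 2.50 and 2.64 FPKM in sh-RAD51C 1, 2 and 3, a log2 difference of -0.11 ± 0.067 (SE). MXD1 measured 1.48, 1.31 and 1.42 FPKM in NC and 1.45, 1.61 and 1.90 FPKM in sh-RAD51C, a log2 difference of 0.14 ± 0.077 (SE). The highest MXD1 value came from 1 library, sh-RAD51C 3, and sh-RAD51C 1 lay inside the NC range. With quantile normalization MXD1 was called higher, with a log2 difference of 0.23. MNT lies on chromosome 17 from 2384073 to 2401060 and shares 12.2% of its exon bases with a gene on the other strand, and MXD1 lies on chromosome 2 from 69915109 to 69942945.

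**Figure D2:**
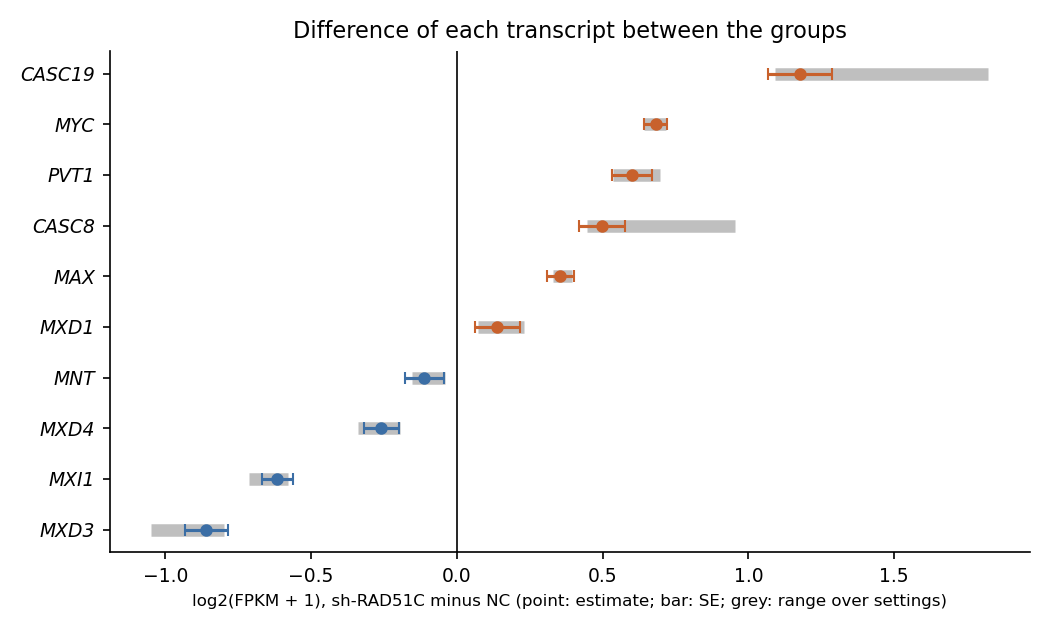
Difference of each transcript between sh-RAD51C and NC on the log2(FPKM + 1) scale (horizontal axis; points are limma estimates, bars the SE, grey lines the range over the processing alternatives). MXD3 lies furthest below 0 at -0.86 and CASC19 furthest above at 1.18, where the grey line reaches 1.82.

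Added together, the 5 antagonists came to 22.5, 22.5 and 23.4 FPKM in NC 1, 2 and 3 and to 15.5, 15.4 and 15.1 FPKM in sh-RAD51C 1, 2 and 3. Their mix shifted as well, since the 5 did not change by the same factor. The shares of MXI1 and MXD3 were lower in sh-RAD51C, and those of MXD4, MNT and MXD1 were higher. MXD3 made up 29.2% ± 0.820 of the sum in NC and 21.1% ± 2.48 in sh-RAD51C (SD, n = 3), while MXD1 made up 6.17% ± 0.402 and 10.8% ± 1.64. The ratio of MYC to the summed antagonists was 1.36, 1.35 and 1.38 in NC and 3.26, 3.36 and 3.23 in sh-RAD51C, 2.41-fold higher in the mean. Both terms of that ratio contributed, as MYC was 1.62-fold higher and the sum was 0.673 of its NC level. The ratio of MYC to MAX went from 1.90 ± 0.144 to 2.37 ± 0.0577 (SD, n = 3), so MAX did not keep pace with MYC in level. These are ratios of RNA levels, and protein was not measured.

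**Figure D3:**
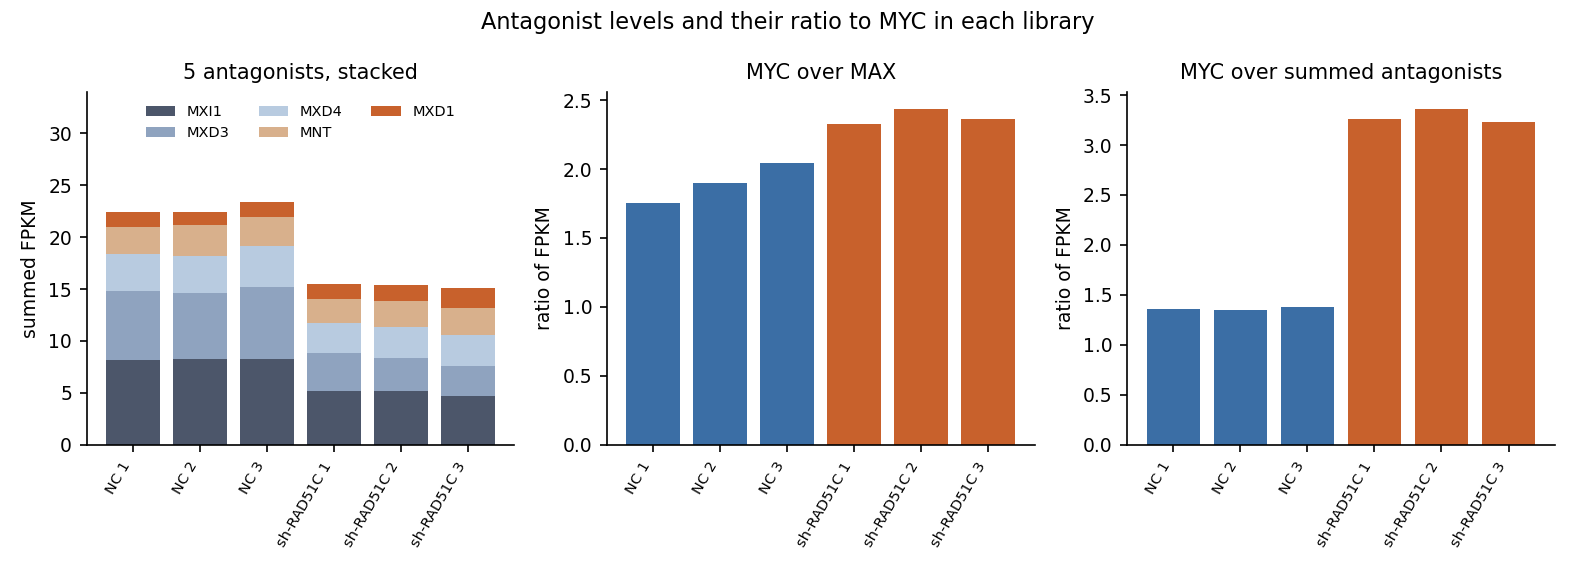
Left, FPKM of the 5 antagonists stacked for each library; other panels, ratios of FPKM in each library, as bars from 0 (NC blue, sh-RAD51C orange). The stacks total 22.5 to 23.4 FPKM in NC and 15.1 to 15.5 FPKM in sh-RAD51C, and MYC over the summed antagonists is 1.35 to 1.38 against 3.23 to 3.36.

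PVT1 was also higher in sh-RAD51C. It measured 5.29, 4.98 and 4.80 FPKM in NC 1, 2 and 3 and 7.36, 8.13 and 8.99 FPKM in sh-RAD51C 1, 2 and 3, with no overlap between the groups. Its means, 5.02 ± 0.245 and 8.16 ± 0.815 FPKM (SD, n = 3), have the same ratio as those of MYC to 3 digits, 1.62, and PVT1 over MYC was 0.162 ± 0.0125 in NC and 0.162 ± 0.0201 in sh-RAD51C. Within the groups the pair did not move together. Replicate 3 of sh-RAD51C had the most PVT1 and the least MYC, and replicate 3 of NC had the least PVT1 and the most MYC. PVT1 starts 59.1 kb downstream of the MYC start and runs from 127794524 to 128101256 on chromosome 8.

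CASC19 had the largest ratio of the 10 and the thinnest counts. It was at 1.37, 0.740 and 0.822 FPKM in NC 1, 2 and 3 and 3.65, 3.08 and 3.57 FPKM in sh-RAD51C 1, 2 and 3, which rest on 16, 9 and 10 inferred reads against 45, 37 and 44. The counted length inferred with these reads was 324 bases, against 22208 exon bases in GENCODE. The level of CASC19 beside other genes depends on that length. Its means differ 3.51-fold. The log2 difference of 1.18 ± 0.11 (SE) understates this because 1 FPKM is added before the logarithm, and it was 1.76 with 0.1 FPKM added. CASC8 was at 0.660, 0.951 and 0.758 FPKM in NC and 1.43, 1.65 and 1.498 FPKM in sh-RAD51C, 1.93-fold higher in the mean, with a log2 difference of 0.50 ± 0.079 (SE) that became 0.88 with 0.1 FPKM added. Neither gene overlapped between the groups. CASC19 runs from 127187785 to 127197627 and CASC8 from 127289676 to 127482139 on chromosome 8, both on the minus strand.

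In NC the order of levels was MYC, MAX, MXI1, MXD3, PVT1, MXD4, MNT, MXD1, CASC19 and CASC8, and neighbours overlapped only among the last 3. In sh-RAD51C PVT1 stood above MXI1, and CASC19, MXD3 and MXD4 followed with overlapping neighbours. MNT came next, then MXD1 and CASC8, which overlapped.

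The rest of the MYC neighbourhood was read from every gene listed within 2 Mb on either side of MYC. Of 20 such genes 6 were tested, and all 6 were called higher, as were 23.2% of all genes tested. Nothing is read from that count, since 4 of the 6 are members chosen by these values and CASC19 and CASC8 passed the filter only through sh-RAD51C. The others were CCAT1 and LRATD2. CCAT1, a noncoding RNA first described in colon cancer, rose from 2.23 ± 0.191 to 4.57 ± 0.403 FPKM (SD, n = 3; limma, Benjamini-Hochberg adjusted p = 6.28e-06), and LRATD2 rose from 27.5 ± 1.58 to 37.5 ± 1.60 FPKM (limma adjusted p = 2.69e-05). The other 14 averaged at most 0.564 FPKM in either group. CASC11, which ends 1.47 kb upstream of MYC, was at 0.154 ± 0.0878 and 0.162 ± 0.0844 FPKM, not distinguishable at 4 to 15 inferred reads per library. Further out, SQLE, a sterol synthesis enzyme, fell from 39.8 ± 1.07 to 23.4 ± 1.19 FPKM (SD, n = 3; limma adjusted p = 2.34e-07), while ASAP1 rose from 19.5 ± 0.260 to 31.0 ± 1.74 FPKM (limma adjusted p = 9.57e-07). DNA copy number was not measured.

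**Figure D4:**
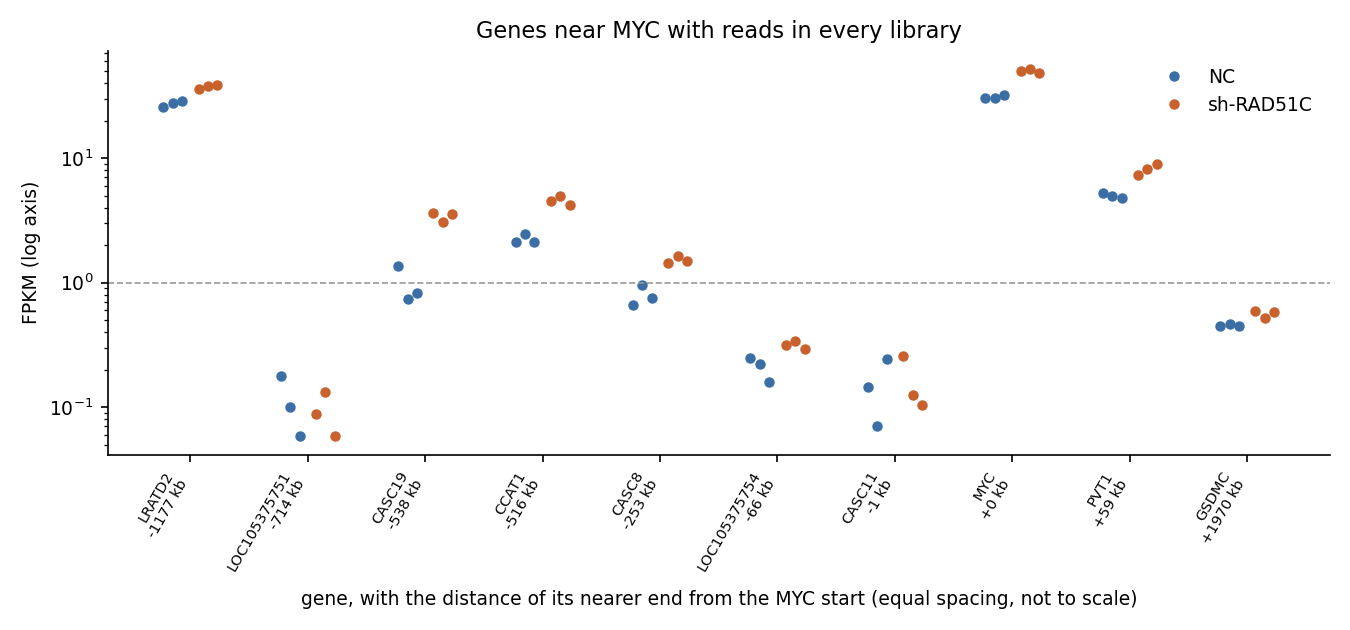
FPKM (log axis) of genes near MYC that had reads in every library, ordered by position and labelled with the distance of the nearer end from the MYC start (equal spacing, not to scale); points are libraries and the dashed line is 1 FPKM. The genes above the line in sh-RAD51C are LRATD2, CASC19, CCAT1, CASC8, MYC and PVT1, each higher there than in NC. CASC19 and CASC8 average above the line only in sh-RAD51C. MYC, PVT1, CASC19 and CASC8 were chosen by these values, so nothing is read from the shared direction.

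MYC target genes were mostly higher in the knockdown. This list and those below were chosen with earlier results of these data known. Their counts are therefore a description, and no test rests on them. Of 65 tested, 53 were called higher and 2 lower (of all genes tested, 23.2% and 26.2% were), with a median log2 difference of 0.39 against -0.01 over all genes tested. SRM, spermidine synthase, rose 1.74-fold, from 36.7 ± 1.47 to 63.7 ± 3.51 FPKM (SD, n = 3; limma adjusted p = 2.64e-07). Nucleolar and ribosome assembly genes filled the rest of the top 10 by p: NOLC1, WDR43, NOP56, RRP9, MRTO4, NIP7, NOP2, IMP4 and BYSL, all with a limma adjusted p of 1.78e-06 or less. RRP9, a U3 snoRNP protein, rose from 11.5 ± 0.851 to 19.7 ± 0.281 FPKM and NOP56, a box C/D snoRNP core protein, from 125 ± 3.10 to 175 ± 2.83 FPKM. The 2 lower genes, named after their values were seen, were LDHA, lactate dehydrogenase A, at 891 ± 15.3 and 761 ± 35.9 FPKM (limma adjusted p = 0.00143), and MAP3K6, at 4.71 ± 0.362 and 3.56 ± 0.126 FPKM (limma adjusted p = 0.00141).

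Of 12 tested genes that MYC is known to repress, 6 fell (50%, against 26.2% of all genes tested) and 3 rose (25%, near the 23.2% of all genes tested), with a median log2 difference of -0.20. CDKN1C, among the 6, averaged 1.79 FPKM in NC and 0.933 FPKM in sh-RAD51C. It passed the filter on low values only through NC, so nothing is read from the share that fell. NDRG1, a stress and differentiation gene, fell from 124 ± 11.3 to 37.4 ± 0.948 FPKM (SD, n = 3; limma adjusted p = 4.47e-09). CEBPA fell by 1.27 on the log2 scale, and the cyclin-dependent kinase inhibitors CDKN1B and CDKN1A fell by 0.48 and 0.45. GADD45A and GADD45B, which respond to DNA damage and stress, went the other way: GADD45B rose from 2.98 ± 0.163 to 9.98 ± 0.112 FPKM (limma adjusted p = 8.96e-09) and GADD45A from 21.6 ± 0.598 to 46.5 ± 1.73 FPKM (limma adjusted p = 1.05e-08).

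The corepressors through which the MXD proteins act were called lower in 9 of 16 and higher in 1, against 26.2% and 23.2% of all genes tested, with a median log2 difference of -0.15. SIN3A, the scaffold of the complex, fell from 16.5 ± 0.397 to 14.2 ± 0.568 FPKM (SD, n = 3; limma adjusted p = 0.00298), and the histone chaperone RBBP4 fell by 0.18 on the log2 scale. BRMS1, a SIN3 complex subunit, rose by 0.24. Of 16 MYC coactivators and binding partners 4 rose, or 25%, near the 23.2% of all genes tested. Another 2 fell, or 12.5% against 26.2%. KAT2A, a histone acetyltransferase, rose from 30.1 ± 0.687 to 37.3 ± 0.430 FPKM (limma adjusted p = 4.83e-05), RUVBL1 rose by 0.30 and SMARCB1 by 0.17. The acetyltransferase EP300 fell by 0.21 (limma adjusted p = 0.0178), a call lost without NC replicate 3 (adjusted p = 0.0560) and with no filter on low values (adjusted p = 0.0862).

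Among 19 genes for MYC protein turnover 3 rose, 3 fell and 13 were not called, which is 15.8% in each direction against 23.2% higher and 26.2% lower over all genes tested. The ubiquitin ligase genes FBXO32 and STUB1 rose by 0.58 and 0.25 on the log2 scale, and USP36, a nucleolar deubiquitinase, by 0.64. USP28, a deubiquitinase that stabilizes MYC, fell by 0.33. Of 14 regulators of MYC transcription and mRNA tested, 7 rose and 2 fell, or 50% and 14.3%. E2F1 rose from 16.3 ± 1.07 to 19.6 ± 0.601 FPKM (SD, n = 3; limma adjusted p = 0.00157), and CNBP, ELAVL1 and PUF60 rose by 0.24, 0.20 and 0.18.

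Of the relatives of MYC, MYCL fell from 1.64 ± 0.0562 to 0.798 ± 0.0611 FPKM (SD, n = 3), and MYCN was near 0. MYCL passed the filter on low values only through its level in NC, so no p-value is given for it. MLX, the MAX-like partner of a parallel network, rose by 0.34. MGA and MLXIP had log2 differences of -0.05 and -0.01 and were not called (limma adjusted p = 0.667 and 0.914).

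**Figure D5:**
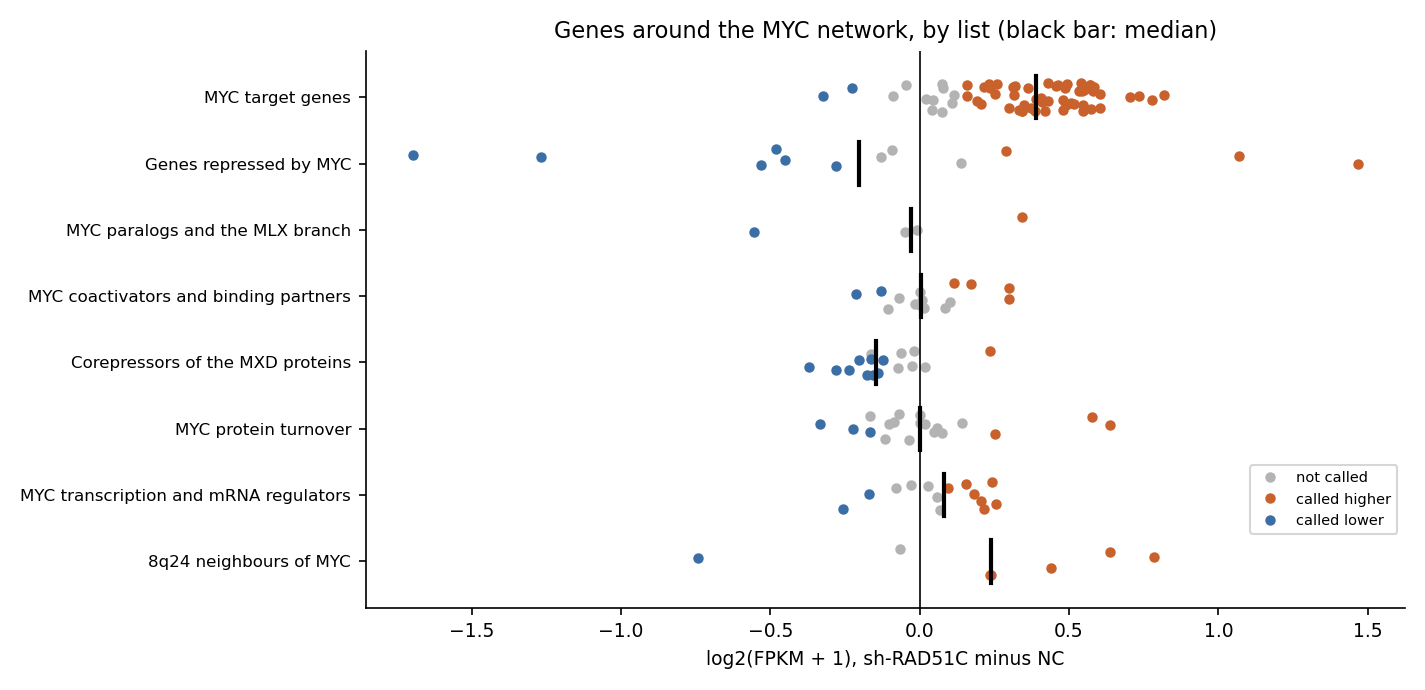
Difference between sh-RAD51C and NC on the log2(FPKM + 1) scale for each tested gene, by list (points; black bars are medians). The MYC target genes lie mostly above 0 with a median of 0.39, and the corepressors mostly below with a median of -0.15.

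The genes whose profile over the 6 libraries was most like that of MYC, by Pearson correlation of log2(FPKM + 1) among 7375 genes averaging at least 5 FPKM, were ANXA3, BOP1, ADSL, PEA15 and HSP90AB1, each at r = 0.999 or above. The 6 libraries form 2 groups of 3, so the group difference is part of every such value, and 21.2% of those genes exceeded r = 0.9 with MYC. For MXD4 the closest were PORCN, CDC25C, TMEM167A, TP53INP2 and RNF26, at r = 0.992 to 0.995.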

How the data were processed

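Per the labels, total RNA was extracted with TRIzol from transfected cells. The authors deposited FPKM per gene. The submitters' processing notes name hg38, R 3.2.0 and DESeq2 without a role; for the aligner, counter, annotation and strand, nothing is stated in those notes or the labels. Columns were matched to libraries by title, leaving 0 unused. The members and gene lists were chosen with earlier results of these data known. limma 3.58.1 (R 4.3.3, moderated, two-sided) compared log2(FPKM + 1) between the groups over 11152 genes averaging at least 1 FPKM, with Benjamini-Hochberg adjustment at 0.05. Read totals were inferred from FPKM steps, which gave whole reads within 0.001 for 11151 of those genes. No replicate pair agreed within sampling noise (chi-square over its degrees of freedom, 3.69 to 14.3). On data simulated for this comparison (11123 genes), 52% of 50 genes changed 1.2-fold and 98% of 49 changed 1.5-fold were called, and 12 of 10925 unchanged genes. The simulation changed few genes and assumed 1 fixed dispersion. In the real data 49.4% of genes were called, so these rates need not hold for them. Named genes were RAD51C, the members, the 4 smallest p per list (10 for targets, 6 for repressed genes) and the 5 most like MYC or MXD4. One gene this rule names is not reported here. The alternatives were another pseudocount (0.1), filter, scaling, no variance trend, voom weights on inferred reads, a replicate block and leaving out each library. Promoters came from RefSeq and exon overlaps from GENCODE release 29.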

Additional observations from a re-analysis of the deposited data

How the results depend on the processing

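Over 14 alternatives, 681 of 690 comparisons for 50 named genes kept their direction and side of the threshold. Apart from RAD51C, the named genes were picked by p or by their values in this comparison. That share therefore does not speak for other genes. MYC target genes called higher numbered 50 to 55 and corepressors called lower 7 to 10. At a mean of at least 5 FPKM 7376 genes were tested, and 2088 were called higher and 1859 lower. Of the members only MYC, MAX, PVT1 and MXI1 were tested there, and each kept its call, 3 higher and 1 lower. MXD3, MXD4, CASC19 and CASC8 fell under that filter, so their calls dropped out with them. MAP3K6 and MYCL fell under it too, which left 1 MYC target and 0 paralogs called lower. Coactivators and binding partners called lower numbered 1 with no filter and 1 with median-of-ratios size factors. They numbered 0 to 2 when each library was left out. The count was 0 without NC replicate 3 and 1 without NC replicate 2 or without sh-RAD51C replicate 2. Transcription and mRNA regulators called higher numbered 4 to 6 when each library was left out, with 4 without NC replicate 2. Leaving out each library gave 2129 to 2609 genes higher and 2393 to 2855 lower. Apart from the genes dropped by the 5 FPKM filter, the cause of these shifts was not tested. Uncalled differences changed sign for MGA, from -0.112 to 0.0630 when each library was left out (above 0 without sh-RAD51C replicate 1), and for MLXIP, from -0.0482 to 0.0229 (above 0 without NC replicate 2, sh-RAD51C replicate 1 or sh-RAD51C replicate 3). MLXIP was also at 0.0254 with median-of-ratios size factors and 0.00482 with quantile normalization. Scaling moved the split: genes called higher and genes called lower numbered 2589 and 2922 as reported, 3114 and 2549 with median-of-ratios, and 2867 and 2687 with quantile normalization.

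With the replicate number as a block, genes called higher numbered 2601 and genes called lower 2968, with 5 members higher and 3 lower. Same-numbered libraries had residual correlations of 0.190, 0.0257 and 0.0909, and NC 3 correlated best with sh-RAD51C 2 (0.110). Whether same-numbered libraries share a culture or batch was not tested. CASC19, with 9 to 45 reads per library, is the member whose size depth limits most.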
